A study of Mus musculus with 9 samples.

Results

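Foxp1, Foxp2 and Foxp4 are the members of the forkhead P subfamily of transcription factors that have roles in the developing brain. They were chosen by symbol, with Foxp4 selected on its position among the largest falls shared by both mutants, so the values of all 3 genes in the comparisons with controls are given as a description and support nothing. The 3 genes were matched by symbol to Ensembl identifiers among 57010 genes of the count table and were measured in all 9 embryos. The study asked how transcript levels in the embryonic cortex change when Cnot3 is lost. Cnot3 encodes a subunit of CCR4-NOT, the complex that shortens poly(A) tails and starts the decay of many mRNAs. Cortical tissue was microdissected at E12.5 from single mouse embryos, and stranded poly(A) RNA-seq was performed with 1 library per embryo. The 3 control embryos (Ctrl) carry the genotype label WT. The 3 cKO embryos carry Cnot3 lox/lox alleles, and the 3 dcKO embryos are labelled with Cnot3 lox/lox and Trp53 lox/lox alleles. In both mutants these alleles are deleted by Emx1-Cre, which is active in radial glia of the dorsal telencephalon and in the cells they produce. Blood vessels, microglia, meninges and blood within the dissected tissue therefore keep their alleles, and which Cre and lox alleles the controls carry is not stated in the labels.

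Forkhead proteins bind DNA through a winged-helix domain. Members of the P subfamily act mainly as repressors, and they bind DNA as dimers through a leucine zipper, so that Foxp1, Foxp2 and Foxp4 can pair with themselves or with each other. In the cortex Foxp1 is known from radial glia at early stages and from upper and middle layer neurons later, Foxp2 from deep-layer neurons and for its link to human speech, and Foxp4 from progenitors and young neurons. Foxp3, the remaining member, is known for directing regulatory T cells.

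Foxp1 (ENSMUSG00000030067.18) lies on the minus strand of chromosome 6 at 98925338 to 99522721 in GRCm38, and Foxp2 (ENSMUSG00000029563.17) lies on the plus strand of the same chromosome at 14901349 to 15441977. Foxp4 (ENSMUSG00000023991.17) lies on the minus strand of chromosome 17 at 47867133 to 47924645. Of the genes that overlap them in the GENCODE M21 annotation, Gm20696 shares 300 exon bases with Foxp1 and had at most 12 reads in any embryo, and the microRNA gene Gm49348, which shares 135 bases, is not in the count table. The embryos had between 21193798 and 45073349 counted reads, and all 3 Foxp genes passed the minimum of more than 10 reads in every embryo that left 13680 genes for testing. Levels are given as CPM, reads scaled to the size of each library, with TMM factors that correct for differences in library composition.

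The targeted genes were examined first. Cnot3 was at 117.3, 106.9 and 98.2 CPM in the Ctrl embryos of replicate numbers 1, 2 and 3, and at 15.0, 17.3 and 14.6 CPM in the cKO embryos. In dcKO it was at 7.33, 48.2 and 19.0 CPM. All 6 mutant embryos lay below the 3 Ctrl embryos, but dcKO replicate 2 kept 44.9% of the Ctrl mean. Trp53, which encodes the tumour suppressor p53, was at 237, 254 and 215 CPM in Ctrl, at 167, 164 and 167 CPM in cKO, and at 15.1, 110.4 and 20.6 CPM in dcKO. Replicate 2 was again the highest dcKO embryo, at 46.9% of the Ctrl mean against 6.41% and 8.76% in the others. Reads were counted over whole genes, so reads from exons outside the deleted parts are included. Because dcKO replicate 2 stood apart in both targeted genes, results for dcKO are given with and without it. The levels of GC-rich genes set dcKO replicate 3, and to a lesser degree Ctrl replicate 3, apart from the other embryos of their genotypes, and dcKO is also given without replicate 3.

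Foxp4 had the lowest group means of the 3 genes in the mutants relative to Ctrl, although in dcKO replicate 3 it kept 45.2% and Foxp1 24.2% of the Ctrl mean. It was at 87.3, 66.3 and 31.5 CPM in the 3 Ctrl embryos, at 11.4, 17.4 and 5.99 CPM in the 3 cKO embryos, and at 2.28, 7.84 and 27.9 CPM in the 3 dcKO embryos. Both mutant groups lay below the Ctrl embryos, but the highest dcKO embryo, replicate 3, came close to the lowest Ctrl embryo, which was also replicate 3. In cKO every embryo lay below every Ctrl embryo, as did 28.0% of the genes tested, and in dcKO every embryo did so, as did 11.2% of the genes tested. The log2 fold change was -2.41 (SE 0.78, n = 3 embryos per genotype) in cKO and -2.29 (SE 0.77, n = 3 embryos per genotype) in dcKO. The dcKO value was -4.34 with limma voom and sample quality weights, and -0.17 with the number of the embryo code as a block, where dcKO replicate 3 alone stands for dcKO. In a bulk sample, fewer cells that express a gene and less of its RNA per cell cannot be told apart.

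A gene counted as called when its adjusted p was under 0.05 and its level differed by more than 2-fold. edgeR called none of the 3 Foxp genes against Ctrl. At these thresholds edgeR called 2 genes in cKO, or 0.0146% of those tested, and 0 genes in dcKO, or 0%, although 3693 and 3994 genes had an unadjusted p under 0.05. DESeq2 with these thresholds placed Foxp4 among its lower genes in both mutants, and these lower genes made up 3.87% of the genes tested in cKO and 3.79% in dcKO. Without dcKO replicate 2, a choice made after the values were seen, DESeq2 no longer called Foxp4 in dcKO, and its edgeR log2 fold change was -2.04. Without dcKO replicate 3 this value was -3.60, and DESeq2 called Foxp4 in dcKO.

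**Figure D1:**
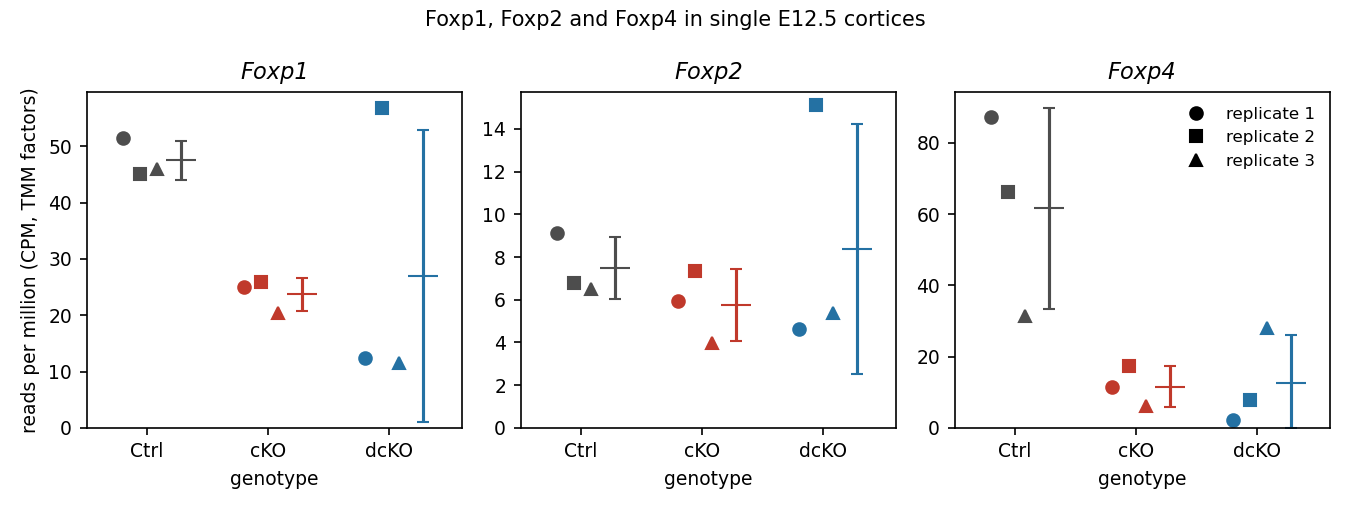
Level of Foxp1, Foxp2 and Foxp4 in CPM with TMM factors in each of the 9 embryos, by genotype; symbols mark the replicate number, and the dash with its bar is the mean and SD of the 3 embryos, with the bar drawn no lower than 0. All mutant embryos lie below the Ctrl embryos for Foxp4, whereas dcKO replicate 2 is the highest of the 9 embryos for Foxp1, at 56.8 CPM, and for Foxp2, at 15.1 CPM.

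The embryo codes in the labels hold a number that some embryos of different genotypes share. Ctrl replicate 1 and cKO replicate 2 share one, and their Foxp4 levels were 87.3 and 17.4 CPM. Ctrl replicate 2 and cKO replicate 3 share another, with 66.3 and 5.99 CPM. Ctrl replicate 3 and dcKO replicate 3 share the last, with 31.5 and 27.9 CPM. Foxp4 was thus lower in the mutant of each pair, and the difference in the pair with the dcKO embryo was small. What the number stands for is not stated, and the other 3 embryos share theirs with no embryo of another genotype.

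Foxp4 is a GC-rich transcript, and GC-rich genes as a class differed between these libraries. The longest Foxp4 transcript is 63.4% GC, above 99.5% of the 13561 tested genes with a GC value. The 490 tested genes over 60% GC had a median of 0.33, 0.09 and -0.42 in the 3 Ctrl embryos, as log2 CPM minus the Ctrl mean. Their median was -0.90, -0.60 and -0.95 in the cKO embryos, and -1.81, -1.70 and 0.12 in the dcKO embryos. On the same scale Foxp4 was at 0.62, 0.23 and -0.85 in Ctrl, at -2.31, -1.71 and -3.24 in cKO, and at -4.63, -2.85 and -1.02 in dcKO. In both series Ctrl replicate 3 was the lowest Ctrl embryo and dcKO replicate 3 the highest dcKO embryo, and Foxp4 lay below the class median in every mutant embryo. The 3555 genes at 45% GC or less moved the other way, with medians of 0.23, 0.16 and 0.25 in cKO and of 0.58, 0.82 and -0.08 in dcKO.

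When each library was corrected for GC content, the Foxp4 log2 fold change was -1.25 in cKO and -1.31 in dcKO, in place of -2.41 and -2.29. After the correction Foxp4 stood at 0.22, 0.10 and -0.31 in Ctrl, at -1.10, -0.84 and -1.99 in cKO, and at -2.48, -0.86 and -1.04 in dcKO. All 6 mutant embryos lay below the 3 Ctrl embryos on this scale. The share of all genes tested that do so after the correction was not computed. Foxp4 was chosen on these same comparisons, so its separation is a description. Why GC-rich genes differed between the libraries was not tested.

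**Figure D2:**
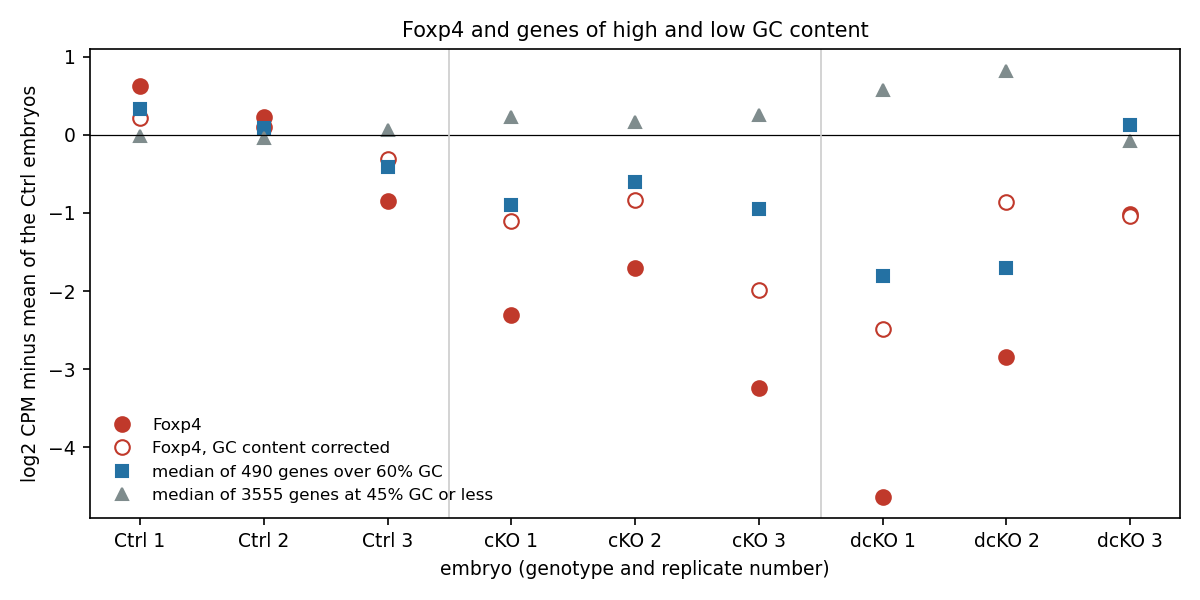
Foxp4 in each embryo as log2 CPM minus the mean of the Ctrl embryos, before (filled circles) and after (open circles) the correction for GC content, beside the median of the 490 tested genes over 60% GC (squares) and of the 3555 tested genes at 45% GC or less (triangles). The GC-rich class is low in all 3 cKO embryos and in dcKO replicates 1 and 2, at -1.81 and -1.70, but not in dcKO replicate 3, at 0.12, and corrected Foxp4 lies between -2.48 and -0.84 in the mutants.

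Foxp1 was lower in all cKO embryos than in all Ctrl embryos, as were 28.0% of the genes tested, but its dcKO embryos divided. It was at 51.5, 45.03 and 46.0 CPM in Ctrl, at 24.9, 25.9 and 20.4 CPM in cKO, and at 12.4, 56.8 and 11.5 CPM in dcKO. Replicates 1 and 3 were the lowest of the 9 embryos, at 26.1% and 24.2% of the Ctrl mean, whereas replicate 2 was the highest. The log2 fold change was -1.0 (SE 0.53, n = 3 embryos per genotype) in cKO and -0.82 (SE 0.52, n = 3 embryos per genotype) in dcKO. Without dcKO replicate 2 the dcKO value was -1.99, and without replicate 1 or replicate 3 it was -0.47 or -0.46. DESeq2 did not call Foxp1 with all embryos, but called it lower in both mutants without dcKO replicate 2 and in cKO without dcKO replicate 3. Of all 13680 genes these fits called 655 lower in cKO and 604 in dcKO, and 824 in cKO. Its longest transcript is 44.9% GC, and with the GC correction the log2 fold changes were -1.10 in cKO and -1.11 in dcKO. The corrected log2 deviation of dcKO replicate 2 from the Ctrl mean was -0.11, below the 0.13, -0.07 and -0.06 of the Ctrl embryos, so it was the highest of the 9 embryos without the correction but not with it.

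Foxp2 was the least abundant of the 3 genes and overlapped between all genotypes. It was at 9.13, 6.79 and 6.53 CPM in Ctrl, at 5.95, 7.33 and 3.996 CPM in cKO, and at 4.61, 15.1 and 5.38 CPM in dcKO. The dcKO replicate 2 embryo was again the highest, at 202% of the Ctrl mean, and the other dcKO embryos lay below the Ctrl embryos. The log2 fold change was -0.38 (SE 0.46, n = 3 embryos per genotype) in cKO and 0.16 (SE 0.46, n = 3 embryos per genotype) in dcKO, and no tool called it. The dcKO value changed sign without dcKO replicate 2, to -0.58, and with the GC correction, to -0.23.

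Levels of different genes were compared as CPM per kb of exon. In Ctrl the order was Foxp4, at 12.52 ± 5.72 CPM per kb (SD, n = 3), Foxp1, at 3.45 ± 0.252 (SD, n = 3), and Foxp2, at 0.458 ± 0.0877 (SD, n = 3). This order held in each Ctrl embryo. It depends on the length used, that of all annotated exons, which is 13751 bases in Foxp1, 16346 in Foxp2 and 4926 in Foxp4. In CPM without length, Foxp1 was above Foxp4 in Ctrl replicate 3, at 46.0 against 31.5. Which of the annotated exons these embryos use was not tested. Foxp3 had between 0 and 9 reads in each of the 9 embryos, too few to test, and some of its exons are shared with Flicr and other genes. In cKO Foxp4, at 2.35 ± 1.15 CPM per kb (SD, n = 3), no longer differed from Foxp1, at 1.73 ± 0.213 (SD, n = 3), beyond the spread, and in cKO replicate 3 Foxp1 was the higher of the pair. In dcKO Foxp1 was at 1.96 ± 1.89 CPM per kb (SD, n = 3), Foxp4 at 2.57 ± 2.74 (SD, n = 3) and Foxp2 at 0.512 ± 0.358 (SD, n = 3). The means of these neighbours did not differ beyond the spread between embryos. Within each dcKO embryo, however, Foxp1 was above Foxp2. In replicates 1, 2 and 3 Foxp1 was at 0.901, 4.13 and 0.837 CPM per kb, and Foxp2 at 0.282, 0.924 and 0.329. Foxp4 was above Foxp1 in dcKO replicate 3 and below it in replicates 1 and 2.

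The summed level of the 3 genes was lower in the mutants, as was Foxp4. It was 22.0, 17.1 and 10.1 CPM per kb in Ctrl, 4.49, 5.86 and 2.94 in cKO, and 1.64, 6.65 and 6.83 in dcKO. All mutant embryos were below all Ctrl embryos in this sum. Because Foxp4 was chosen for its falls and made up most of the sum in Ctrl, this separation is a description. The levels in the sum are without the GC correction. Foxp4 made up 80.5%, 78.5% and 63.0% of the sum in Ctrl and 51.6%, 60.2% and 41.3% in cKO. In dcKO the make-up differed between embryos, with Foxp4 at 28.1% and 23.9% in replicates 1 and 2 and at 82.9% in replicate 3. Foxp1 made up 54.8%, 62.2% and 12.3% of the sum in the same dcKO embryos. The genes over 60% GC had medians of -1.81, -1.70 and 0.12 in these embryos, as log2 CPM minus the Ctrl mean. The part of GC content in the make-up of the sum was not tested.

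**Figure D3:**
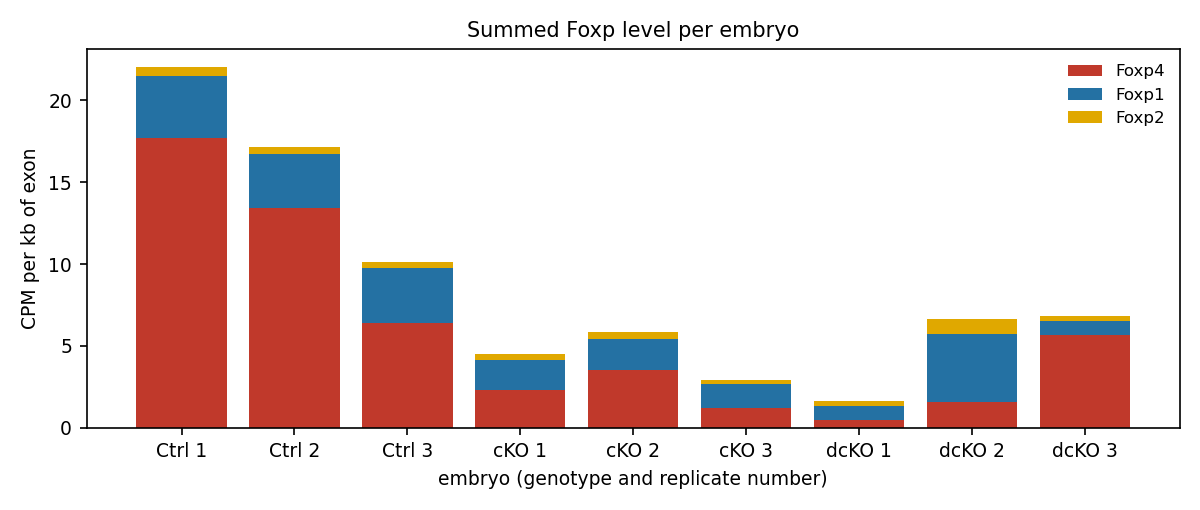
Summed level of Foxp4, Foxp1 and Foxp2 in CPM per kb of exon in each of the 9 embryos; the height of each coloured part is the level of 1 gene. The sum is 10.1 or more in the Ctrl embryos and at most 6.83 in the mutants, without the correction for GC content. The dcKO replicates 2 and 3 reach similar sums of 6.65 and 6.83 with different genes.

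The comparison of dcKO with cKO asks whether the loss of Trp53 changes Foxp levels in the absence of Cnot3. The levels of Foxp4 in both mutants chose it, so its log2 difference, dcKO minus cKO, of 0.12 (SE 0.75) is a description. Foxp1 and Foxp2 were taken as its relatives and could be tested. For Foxp1 the difference was 0.18 (SE 0.52), with an edgeR adjusted p of 0.987 and an exact two-sided permutation p of 1. For Foxp2 it was 0.54 (SE 0.46), with an edgeR adjusted p of 0.893 and an exact permutation p of 0.7. The smallest exact p that 3 against 3 embryos allow is 0.1. Neither passed the test, while edgeR called 2 genes, or 0.0146% of those tested, and DESeq2 called 52, or 0.380%. The dcKO embryos differed from each other by more than these differences, so a change of moderate size could not be seen.

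The direction of this comparison depended on single embryos for all 3 genes. Foxp1 was lower in dcKO replicates 1 and 3 than in all 3 cKO embryos and higher in dcKO replicate 2. Its log2 difference was -0.93 with the number of the embryo code as a block, where dcKO replicate 3 alone stands for dcKO. Without replicate 2, DESeq2 gave a log2 difference of -1.02 (SE 0.203) and an adjusted p of 0.000549, whereas edgeR gave -0.99 (SE 0.186) and an adjusted p of 0.499. Over all alternatives the adjusted p of Foxp1 lay between this DESeq2 value and 1. For Foxp2 the difference was -0.21 (SE 0.322) without dcKO replicate 2, and its adjusted p over all alternatives lay between 0.191 and 1. The Foxp4 difference was -1.19 (SE 0.586) without dcKO replicate 3. It was 2.69 with the number of the embryo code as a block, where dcKO replicate 3 alone stands for dcKO.

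Among 241 genes that DESeq2 called lower in both mutants and whose mutant embryos all lay below the Ctrl embryos, Foxp4 had rank 3 by the mean edgeR log2 fold change, at -2.35. The gene before it was Lancl3, at -2.37, which encodes a LanC-like protein and had 12 to 169 reads per embryo. The gene after it was Hic1, at -2.32, a transcriptional repressor with 11 to 133 reads per embryo. Foxp4, with 82 to 2140 reads, was therefore the most deeply counted of the 3. Hic1 is also GC-rich, at 64.7%, whereas Lancl3 is at 47.5%. Both mutants were compared with the same Ctrl embryos.

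The genes with the most similar profile were found by the root mean square difference of log2 CPM over the 9 embryos, after each gene was centred on its own mean. For Foxp4 they were Ccdc124, Lrfn4, Lrrc4b, Gse1 and Tmem132a, at 0.368 to 0.416, against a median of 1.66 over the other 13679 genes. Their GC content, against a median of 49.4% over the tested genes, is 59.96%, 65.6%, 63.1%, 57.1% and 61.9%, and 3 of the 5 are over 60%. Lrfn4 and Lrrc4b encode leucine-rich repeat proteins of the synapse, and Gse1 encodes a nuclear protein of a corepressor complex. For Foxp2 the nearest were Neurod1, Plcxd2, Pitpnc1, Bcl11b and Sox11, at 0.1999 to 0.218, against a median of 0.662. Neurod1, Bcl11b and Sox11 are transcription factors of newborn neurons. For Foxp1 they were Fam78b, Sobp and Gm44206, at 0.216, 0.227 and 0.277, against a median of 0.912, and 2 genes known only by identifier, ENSMUSG00000121042.1 and ENSMUSG00000120732.1, at 0.141 and 0.259. The identifiers are not in the annotation used here, and whether they overlap Foxp1 was not tested. Between the members the difference was 0.547 for Foxp1 and Foxp2, 1.36 for Foxp1 and Foxp4 and 1.52 for Foxp2 and Foxp4. The value for Foxp1 and Foxp2 lies below the medians of both genes. Those with Foxp4 lie below the median of Foxp4 but above that of Foxp1 or Foxp2.

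Of 40 forkhead genes outside the P subfamily, 17 could be tested. In Ctrl, Foxk2 was at 40.5 ± 2.42 CPM per kb (SD, n = 3) and the cell cycle factor Foxm1 at 33.8 ± 3.86 (SD, n = 3), both above Foxp4. Foxp4 lay within the spread of Foxo4, at 12.1 ± 1.91 (SD, n = 3). DESeq2 called 2 of the 17 lower in cKO, Foxk2 and Foxo6, and 1 lower in dcKO, Foxo6, where it called 3.87% and 3.79% of all genes tested lower. It called 0 of the 17 higher in either mutant, where 4.94% of all genes tested were called higher in cKO and 4.66% in dcKO, and edgeR called 0. Foxo6, a forkhead factor of the brain that responds to insulin signalling, was at 37.5, 29.4 and 16.9 CPM in Ctrl, at 6.68, 5.76 and 4.75 CPM in cKO, and at 2.92, 5.85 and 11.8 CPM in dcKO. Like Foxp4 it was lowest in Ctrl replicate 3 and highest, among dcKO, in replicate 3, and its transcript is 69.1% GC. Leaving out dcKO replicate 2, DESeq2 called Foxk2, Foxn2 and Foxo6 lower in dcKO, and without replicate 3 it called Foxk1 and Foxo6. Over all 13680 genes it called 604 lower and 1036 higher in dcKO without replicate 2, and 2174 lower and 1123 higher without replicate 3. The largest positive values were those of Foxj3, at 0.48 (SE 0.16) in cKO and 0.67 (SE 0.16) in dcKO, and of Foxj1, the factor of motile cilia, at 0.62 (SE 0.65) and 0.31 (SE 0.65). The median log2 fold change of the 17 genes was 0.04 in cKO and -0.04 in dcKO, against 0.01 and 0.11 over all genes tested. All 3 cKO embryos lay below Ctrl for 6 and above for 3 of the 17, where 28.0% of all genes tested lay below and 29.2% above. All 3 dcKO embryos lay below Ctrl for 4 and above for 1, where 11.2% of all genes tested lay below and 15.6% above.

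Foxp proteins work with corepressors and other nuclear partners, and all 22 listed partners were tested. DESeq2 called the same 2 of 22 lower in both mutants, Ctbp1 and Gatad2a, beside 3.87% and 3.79% of all genes tested in cKO and dcKO. It called 0 of 22 higher, and edgeR called 0. Ctbp1, a corepressor that binds Foxp1 and Foxp2, had log2 fold changes of -1.40 (SE 0.33) in cKO and -1.02 (SE 0.33) in dcKO. Gatad2a, a subunit of the NuRD complex to which Foxp proteins bind, had -1.05 (SE 0.27) and -0.98 (SE 0.27), its DESeq2 estimate passing the fold threshold in dcKO. Mbd3, another NuRD subunit, had the lowest values, -1.58 (SE 0.67) and -1.34 (SE 0.66), and passed neither test. It was at 168 CPM in dcKO replicate 3 but at 18.3 and 33.2 CPM in replicates 1 and 2, and it is 62.9% GC. The highest values were those of the nuclear receptor Nr2f2, at 0.78 (SE 0.49) and 1.20 (SE 0.49), and of the SUMO ligase Pias1, at 0.50 (SE 0.16) and 0.61 (SE 0.16). Without dcKO replicate 3, DESeq2 called Mbd3 lower in cKO as well, and in dcKO it called Ctbp1, Mta1, Gatad2a and Mbd3 lower and Nr2f2 higher, while 2174 of all 13680 genes were called lower and 1123 higher in dcKO. The median of the 22 genes was -0.16 in cKO and -0.12 in dcKO. All cKO embryos lay below Ctrl for 10 and above for 2 of 22, beside 28.0% and 29.2% of all genes tested. All dcKO embryos lay below Ctrl for 4 and above for 1, beside 11.2% and 15.6%.

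Of 10 genes reported elsewhere as targets of Foxp proteins, 8 could be tested. DESeq2 called Vldlr and Mef2c higher and Lef1 lower in cKO, and Vldlr higher in dcKO, and edgeR called 0 in either. Of all genes tested, DESeq2 called 4.94% higher and 3.87% lower in cKO, and 4.66% higher and 3.79% lower in dcKO. Vldlr, a receptor for Reelin, was at 9.46, 9.77 and 9.95 CPM in Ctrl, at 24.6, 30.7 and 29.8 CPM in cKO, and at 44.2, 29.3 and 17.5 CPM in dcKO. Every mutant embryo was above every Ctrl embryo, as all cKO embryos were for 29.2% of the genes tested and all dcKO embryos for 15.6%. The log2 fold changes of Vldlr were 1.54 (SE 0.31) and 1.64 (SE 0.31). The list was chosen with earlier results of these data known, so these values are a description. The study reported that Vldlr mRNA was stabilized in cKO cells after transcription was blocked with actinomycin D. Mef2c, a transcription factor of neurons, had log2 fold changes of 1.07 (SE 0.28) in cKO and 0.57 (SE 0.28) in dcKO. Lef1, which carries Wnt signals to DNA, had -1.16 (SE 0.32) and -0.81 (SE 0.32), and the Notch ligand Jag1 had -0.82 (SE 0.32) in each mutant. The receptor Met was at 1.05 (SE 0.42) and 1.0 (SE 0.42) and was not called. Jag1 and Lef1 were called lower in dcKO by DESeq2 without dcKO replicate 2, and Met was called higher there without replicate 3. The same fits called 604 of all 13680 genes lower without replicate 2 and 1123 higher without replicate 3. The median of the 8 genes was 0.25 in cKO and 0.12 in dcKO. Whether any of these genes responds to Foxp levels was not tested.

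Of 10 deep-layer neuron genes, the population in which Foxp2 is known, 9 were tested and 0 were called by edgeR or DESeq2, where DESeq2 called 3.87% of all genes tested lower in cKO and 3.79% in dcKO. Their median was -0.50 in cKO and -0.19 in dcKO. Fezf2, which specifies subcortical projection neurons, had log2 fold changes of -0.93 (SE 0.29) and -0.62 (SE 0.29), and Bcl11b, which acts in the same neurons, had -0.58 (SE 0.35) and -0.30 (SE 0.35). Tbr1 and Sox5 were at 0.27 (SE 0.27) and 0.17 (SE 0.20) in cKO, and at 0.03 (SE 0.27) and 0.21 (SE 0.20) in dcKO. Without dcKO replicate 3, DESeq2 called Fezf2 lower in dcKO, with 2174 of all 13680 genes, and Nr4a2 higher in dcKO than in cKO, with 409.

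The labelled cortex was checked against cell type markers, whose movement beside the Foxp genes is given as measured. All 11 radial glia, 7 intermediate progenitor and 11 neuron markers were detected at a level that allowed a test, and their most abundant genes were Vim, Eomes and Tubb3. The summed radial glia markers were at 4397, 3964 and 3583 CPM in Ctrl, at 3699, 3872 and 3479 CPM in cKO, and at 3742, 4121 and 4123 CPM in dcKO. The groups overlapped in this sum, in which Vim had means of 1329 CPM in Ctrl, 1819 CPM in cKO and 1651 CPM in dcKO. The median log2 fold change of the 11 was -0.29 in cKO and 0.04 in dcKO. All cKO embryos lay below Ctrl for 6 and above for 2 of the 11, beside 28.0% and 29.2% of all genes tested. All dcKO embryos lay below Ctrl for 1 and above for 1, beside 11.2% and 15.6%. DESeq2 called Hes5 and Lhx2 lower in cKO and none of the 11 in dcKO, beside 3.87% and 3.79% of all genes tested. The intermediate progenitor sum was at 611, 549 and 468 CPM in Ctrl, at 479, 434 and 399 CPM in cKO, and at 357, 703 and 482 CPM in dcKO, and Gadd45g was the gene of this list that DESeq2 called lower in both mutants. The neuron sum was at 1979.5, 1784 and 1537 CPM in Ctrl, at 1461, 1537 and 1147 CPM in cKO, and at 998, 1938 and 1527 CPM in dcKO, with 0 of 11 called by either tool. DESeq2 without dcKO replicate 2 called Dcx of the neuron markers lower in dcKO, and without replicate 3 it called Tubb3 and Neurod2. Of the progenitor markers it then called Insm1 in place of Gadd45g without replicate 2, and Hes5, Gadd45g and Mfng without replicate 3, as lower in dcKO. These fits called 604 and 2174 of all 13680 genes lower in dcKO.

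The cortical hem and the choroid plexus lie at the edge of the cortex. The 7 hem markers summed to 87.3, 117.3 and 74.9 CPM in Ctrl, to 114, 276 and 351 CPM in cKO, and to 339, 152 and 166 CPM in dcKO. The cKO replicate 1 embryo lay within the Ctrl range, and the other mutant embryos lay above it. DESeq2 called the same 3 of the 6 tested, Wnt2b, Lmx1a and Rspo2, higher in both mutants, beside 4.94% of all genes tested in cKO and 4.66% in dcKO, and Wnt8b was the most abundant. Without dcKO replicate 2, Rspo1 was also called higher in cKO, as were 870 of all 13680 genes. Without replicate 3, Wnt2b was not called in dcKO, where 1123 of all 13680 genes were called higher. The 6 choroid plexus markers did not have more than 10 reads in every embryo, so they were not tested, and they summed to 4.93, 5.70 and 5.84 CPM in Ctrl, to 18.7, 37.0 and 71.7 CPM in cKO, and to 109, 17.0 and 17.8 CPM in dcKO. Ttr, their most abundant gene, had 0 reads in all 3 Ctrl embryos. The part of tissue composition in the Foxp4 levels was not tested.

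Markers of meninges, blood vessels, microglia and blood had lower sums in every dcKO embryo than in every Ctrl embryo. The 7 meningeal fibroblast markers, led by Col3a1, summed to 797, 868 and 796 CPM in Ctrl, to 507, 708 and 464 CPM in cKO, and to 336, 342 and 519.9 CPM in dcKO, with 3 of 6 called lower in dcKO by DESeq2, beside 3.79% of all genes tested. The 7 endothelial markers, led by Kdr, summed to 218, 273 and 293 CPM in Ctrl, to 302, 286 and 213 CPM in cKO, and to 148, 156 and 143 CPM in dcKO, with 2 of 7 called lower in dcKO. The 7 microglia markers, led by Csf1r, summed to 43.2, 48.6 and 38.8 CPM in Ctrl, to 64.8, 89.2 and 40.2 CPM in cKO, and to 22.1, 15.3 and 35.2 CPM in dcKO, and none was called. Without dcKO replicate 3, DESeq2 called 4 microglia markers, Csf1r, C1qa, C1qb and C1qc, lower in dcKO, where it called 2174 of all 13680 genes lower. The 7 erythroid markers, led by Hbb-y, lay between 6475 and 9219.9 CPM in Ctrl, between 8021 and 12199.8 CPM in cKO and between 4294 and 5875 CPM in dcKO, with 3 of 7 called lower in dcKO. Between dcKO and cKO, DESeq2 called 1 of 7 endothelial and 2 of 7 erythroid markers with all embryos, beside 0.380% of all genes tested. Without dcKO replicate 3 it called 2 meningeal, 3 endothelial, 4 microglia and 4 erythroid markers lower in dcKO than in cKO, and 1026 of all 13680 genes. Cajal-Retzius markers, led by Reln, lay between 155 and 192 CPM in Ctrl, between 167 and 227 CPM in cKO and between 140.2 and 156 CPM in dcKO. Diencephalon markers, led by Tcf7l2, lay between 14.9 and 16.0 CPM in Ctrl, between 8.50 and 12.8 CPM in cKO and between 8.995 and 13.6 CPM in dcKO. Of 13 subpallium markers 3 were tested, with a median log2 fold change of -0.26 in cKO and 0.14 in dcKO. DESeq2 called no gene of these last 3 lists with all embryos. Without dcKO replicate 2 or 3 it called Lhx5 and Lhx6 higher in cKO, beside 870 and 787 of all 13680 genes. With dcKO replicate 2 left out it called Lhx5 higher in dcKO too, beside 1036 of all 13680 genes. The same fit called 2 meningeal markers and 1 erythroid marker lower in dcKO, beside 604 of all genes. Without replicate 3 DESeq2 called 3 endothelial markers lower in dcKO, beside 2174 of all genes. No marker of any list was without reads in all 9 embryos.

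The members differ in sequence features that were not used to choose them. The longest 3′UTR of a complete coding transcript has 4752 bases in Foxp1, 3956 in Foxp2 and 1523 in Foxp4, against a median of 1290.0 over 12037 tested genes. Foxp1 and Foxp2 thus have longer 3′UTRs than 94.1% and 90.4% of these genes, and Foxp4 longer than 56.2%. The 3′UTR is 40.7% GC in Foxp1, 35.7% in Foxp2 and 61.0% in Foxp4. GC at codon position 3 is 59.1%, 52.9% and 74.0%, against a median of 60.4% over 12072 genes.

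CCR4-NOT can be brought to an mRNA by Pumilio proteins, by proteins that bind AU-rich elements, or by microRNAs with Argonaute, and miR-9 is a microRNA of the developing forebrain that is known to repress Foxp1 and Foxp2. For this reason 3 motifs were searched on the transcript strand of the 3′UTRs in GENCODE M21: TGTANATA, which Pumilio proteins bind, the AU-rich TATTTAT, and ACCAAAG, which pairs with the seed of miR-9. Over the first 1500 bases after the stop codon of 5334 tested genes with a 3′UTR of that length, 24.9% held TGTANATA, 29.6% held TATTTAT and 13.2% held ACCAAAG. In this window Foxp1 held none of the 3 motifs, Foxp2 held TATTTAT and ACCAAAG at 1 place each, and Foxp4 held ACCAAAG at 2 places. In the whole 3′UTR, Foxp1 held TGTANATA at 1, TATTTAT at 3 and ACCAAAG at 2 places, of which 2 TATTTAT matches overlap each other. Foxp2 held TATTTAT at 4 and ACCAAAG at 2 places in its whole 3′UTR. A match is a description of the sequence, and its use was not tested.

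ACCAAAG was the motif present in the 3′UTR of all 3 members, and its matches are shown with 8 bases on each side, 5′ to 3′ on the transcript strand, with the match in capitals. The mature miR-9, in RefSeq for GRCm38.p6, is shown above them with its seed (bases 2 to 8) in capitals. Both Foxp4 matches lie on chromosome 17, at 47867795 to 47867801 and at 47867647 to 47867653 on the minus strand. Those of Foxp1 lie on chromosome 6 at 98928269 to 98928275 and at 98928078 to 98928084 on the minus strand, and those of Foxp2 at 15438891 to 15438897 and at 15439581 to 15439587 on the plus strand.
miR-9-5p: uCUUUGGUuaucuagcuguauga
Foxp4, base 855 after the stop codon: aacggatgACCAAAGacctttct
Foxp4, base 1003 after the stop codon: tgtgttaaACCAAAGtttacagt
Foxp1, base 1815 after the stop codon: ctaaaattACCAAAGatattacg
Foxp1, base 2006 after the stop codon: gcaatggaACCAAAGttttttac
Foxp2, base 870 after the stop codon: agctgcaaACCAAAGccaactct
Foxp2, base 1560 after the stop codon: tcagtcaaACCAAAGttacatat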

How the data were processed

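RNA-seq libraries of cortices from 9 single E12.5 embryos were analysed, with 3 embryos per genotype assigned by their labels. The authors deposited raw counts per gene, made from stranded poly(A) libraries by Cutadapt trimming, STAR alignment to mm39 and featureCounts; the annotation release and strand setting are not given in the sources used here. The values are whole numbers without normalization, and 30138 of 57010 genes had no read. Embryos had 21193798 to 45073349 reads.

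Counts were tested in R 4.3.3 with edgeR 4.0.16 (quasi-likelihood test, TMM factors, all 9 embryos in 1 model, no covariate) over the 13680 genes where each embryo exceeded 10 reads. P-values were adjusted by the Benjamini-Hochberg method. The SE given for an edgeR estimate is |log2 fold change| / √F. DESeq2 1.42.0 was run on the same genes. The procedure was tested on simulated data. The members and the gene lists were chosen with earlier results of these data known. Names, coordinates, exon lengths, GC content and sequences came from GENCODE M21 on GRCm38, matched by identifier for 52081 genes, so coordinates are not those of mm39. The correction for GC content used a loess fit of log2 counts per embryo with span 0.3. Other tools were limma 3.58.1, Python 3.11.15, NumPy 2.4.6, pandas 2.3.3 and Matplotlib 3.10.9.

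Named genes were those ranked directly before and after Foxp4 among the shared lower genes, the 5 genes nearest in profile to each member, and, from each list, the genes called by either tool and the 2 highest and 2 lowest. From each cell type list they were the most abundant gene and any gene called. Foxm1 and Foxo4, named for their levels, were chosen after their values were seen.

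The alternatives changed the scaling (RLE or upper-quartile factors), the tool (DESeq2, or voom of limma with sample quality weights), the filter (no filter, or filterByExpr) and the embryos (the 6 of a comparison, or all but 1). Others added the replicate number as a block, the GC correction, both together, or the number of the embryo code as a block. DESeq2 without dcKO replicate 2 or 3 was added after the data were seen.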

Additional observations from a re-analysis of the deposited data

How the results depend on the processing

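Over 9 log2 fold changes of the 3 Foxp genes, 166 values under the alternatives kept their direction and moved by less than the spread between replicates or stayed on the same side of the threshold, 7 moved further, 24 changed sign and 1, Foxp4 in dcKO against cKO, became larger in its own direction. Of those that changed sign, Foxp1 in dcKO against cKO also passed the threshold with DESeq2 without dcKO replicate 2. It did so too with the number of the embryo code as a block, where dcKO replicate 3 alone stands for dcKO. The values against Ctrl are a description, as are those of Foxp4 in dcKO against cKO, and p-values are given for Foxp1 and Foxp2 in dcKO against cKO alone. Foxp4 against Ctrl was negative under every alternative in both mutants, as was Foxp1.

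Against Ctrl, with all embryos, Foxp4 was at -2.41 in cKO and -2.29 in dcKO. In cKO it was -1.25 with the GC correction and -1.29 with that correction and the replicate number as a block. In dcKO it was -4.34 with limma voom and sample quality weights, and -0.17 with the number of the embryo code as a block. This last fit rests on the embryos that share a number with another genotype, so its dcKO value comes from replicate 3 alone, which is assumed to vary like the others. Leaving out 1 embryo gave -2.82 to -2.07 in cKO and -3.60 to -1.79 in dcKO. Foxp1 in dcKO, at -0.82, was -2.0 with the embryo code block, -2.03 with DESeq2 without dcKO replicate 2, and -1.99 to -0.46 without 1 embryo. Foxp1 in cKO, at -1.0, was -1.07 to -0.91 without 1 embryo. Foxp2 in cKO, at -0.38, was -0.59 to -0.18 without 1 embryo. Foxp2 in dcKO, at 0.16, changed sign to -0.48 with limma voom, -0.02 with the replicate block, -0.23 with the GC correction, -0.33 with both, -0.28 with the embryo code block and -0.62 with DESeq2 without dcKO replicate 2, and was -0.58 to 0.46 without 1 embryo.

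For dcKO against cKO, Foxp1, at 0.18, changed sign to -0.74 with limma voom, -0.11 with the replicate block, -0.01 with the GC correction, -0.24 with both, -0.93 with the embryo code block (edgeR adjusted p of 0.0199) and -1.02 with DESeq2 without dcKO replicate 2 (adjusted p of 0.000549). It was -0.99 to 0.55 without 1 embryo. Foxp2, at 0.54, was -0.10 with limma voom, -0.24 with DESeq2 without dcKO replicate 2, and -0.21 to 0.83 without 1 embryo. Foxp4, at 0.12, was -1.80 with limma voom, -0.02 with the replicate block, -0.06 with the GC correction, -0.05 with both and -1.19 with DESeq2 without dcKO replicate 3. It was 2.69 with the embryo code block, in which dcKO replicate 3 shares its number with no cKO embryo, and -1.19 to 0.62 without 1 embryo. Over all alternatives the adjusted p lay between 0.000549 and 1 for Foxp1, and 0.191 and 1 for Foxp2. The causes of these changes were not tested, apart from the embryos that each fit leaves out. DESeq2 without dcKO replicate 2 or 3 was chosen after seeing the data.

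The number of genes called depended on the tool and the embryos. In cKO against Ctrl it was 2 with edgeR, 424 with upper-quartile factors, 1206 with DESeq2, 1868 with limma voom, 813 without a filter, 1758 with the 6 embryos compared, 0 with the replicate block, 845 with the GC correction, 12 with both, 1986 with the embryo code block, and 1525 and 1611 with DESeq2 without dcKO replicate 2 and 3. Without 1 embryo edgeR called 0 to 1473. In dcKO against Ctrl edgeR called 0, with 3994 at an unadjusted p under 0.05, against 1157 with DESeq2, 3668 with limma voom, 692 without a filter, 466 with the GC correction, 1633 with the embryo code block, and 1640 and 3297 with DESeq2 without dcKO replicate 2 and 3. Without 1 embryo edgeR called 0 to 3245. In dcKO against cKO it was 2 with edgeR, 52 with DESeq2, 27 with limma voom, 8 without a filter, 0 with the 6 embryos compared, 0 with the replicate block, 7 with the GC correction, 6 with both, 1583 with the embryo code block, and 54 and 1435 with DESeq2 without dcKO replicate 2 and 3. Without 1 embryo edgeR called 0 to 1236. Leaving out dcKO replicate 3 gave the highest number of each range. The other causes were not tested.

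Embryos of the same replicate number were not alike across genotypes. Their deviations from the group means had a mean correlation of -0.169 (9 pairs, from -0.537 to 0.126), against 0.0835 for 18 pairs of different numbers, and no pairing was used. RLE factors changed neither the order of the Foxp levels nor the genes nearest in profile. Depth limits Foxp3, with at most 9 reads per embryo. The choroid plexus markers were not tested because the filter asks for reads in every embryo, and Ttr had none in Ctrl.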
